A study of Mus musculus with 21 samples.

Results

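Transcript levels of 10 macrophage genes were followed in whole mouse liver. They were chosen by symbol from the 55418 symbols counted in each of 21 libraries, with earlier results of these data known. The set holds 7 resident Kupffer cell markers (Clec4f, Vsig4, Timd4, Cd5l, Marco, Cd163 and Folr2) and 3 genes that macrophages share more broadly (Adgre1, C1qa and Csf1r). The study asked what loss of Mboat7 from hepatocytes changes in the liver, at steady state and under a steatosis diet. WT mice carried wild-type Mboat7 and KO mice lacked it in hepatocytes, and the driver and breeding of the deletion are not given in the sources used here. On chow, 6 WT and 7 KO mice were 10 weeks old. A diet rich in fat, poor in methionine and without enough choline (HFMCD) was fed for 6 weeks to 4 WT and 4 KO mice that were 6 to 8 weeks old when it began. All livers were perfused with PBS, and RNA came from whole liver with no sort of cells named. Age and diet cannot be told apart, since the labels give the chow mice another age than the HFMCD mice, and the numbers in the sample titles also fall into separate ranges by diet. The labels do not say which mice shared a litter or a processing day.

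Kupffer cells are the macrophages that live inside the liver sinusoids, where they clear particles, lipoproteins and old red cells from the blood. They are seeded before birth and hold an identity that hepatocyte, stellate and endothelial signals maintain through factors such as PU.1, LXR-alpha, MAF family members and Notch with RBPJ. When Kupffer cells are lost in fatty liver disease, monocytes enter the liver and take up parts of the Kupffer programme, with Timd4 among the genes that appear late or not at all, while Adgre1, C1qa and Csf1r are carried by resident and recruited cells alike. In whole liver, fewer cells of a type and less RNA per cell cannot be told apart, so the values below are amounts of transcript per liver RNA.

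The libraries held 17502231 to 25822972 counts. Levels are given in CPM, counts scaled to the size of each library. Mboat7 was lower in KO than in WT libraries without overlap, at 18.8 to 24.1 against 33.0 to 39.7 CPM on chow and 15.8 to 20.8 against 34.7 to 38.1 CPM on HFMCD. A list of 8 genes of mucosa, muscle and mesothelium was read as a sign of tissue attached to the liver. Its sum reached 84.6 CPM (replicate 3) and 44.1 CPM (replicate 5) in WT on chow. In KO on chow it reached 171 CPM (replicate 1) and 1035 CPM (replicate 7). The other libraries held 2.57 to 10.3 CPM of these 8 genes. The list came from earlier results of these data, so its high sums are not independent evidence of attached tissue. All 10 macrophage genes had reads in every library, from 74 counts at the lowest (Folr2) to 12144 at the highest (Cd5l), and all 10 passed the filter on low counts. Defining markers of Kupffer cells were thus present in every liver, and 16 of 16 further Kupffer cell genes passed the filter.

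RefSeq gave promoter windows (250 bases before to 50 after a start site, GRCm38.p6) for 7 of the 10 genes, 8 windows in all. The windows of 4 genes are printed because these genes behaved differently on HFMCD, as given below: Clec4f (chr6:83656067-83656366, minus strand) passed the test in WT, Timd4 (chr11:46810549-46810848, plus strand) did not pass in either genotype, Cd163 (chr6:124304401-124304700, plus strand) fell and Cd5l (chr3:87357631-87357930, plus strand) rose. Capitals mark matches, on either strand, to 4 motif cores of factors of Kupffer cell identity: GAGGAAG for PU.1, TGGGAA for RBPJ, TGCTGA for MAF and AGGTCA for LXR.
Clec4f: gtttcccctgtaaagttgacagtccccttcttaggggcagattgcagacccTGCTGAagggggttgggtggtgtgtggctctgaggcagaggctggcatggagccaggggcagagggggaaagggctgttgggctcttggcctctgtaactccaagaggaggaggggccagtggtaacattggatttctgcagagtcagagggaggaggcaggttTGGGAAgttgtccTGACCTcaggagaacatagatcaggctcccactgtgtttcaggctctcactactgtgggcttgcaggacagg
Timd4: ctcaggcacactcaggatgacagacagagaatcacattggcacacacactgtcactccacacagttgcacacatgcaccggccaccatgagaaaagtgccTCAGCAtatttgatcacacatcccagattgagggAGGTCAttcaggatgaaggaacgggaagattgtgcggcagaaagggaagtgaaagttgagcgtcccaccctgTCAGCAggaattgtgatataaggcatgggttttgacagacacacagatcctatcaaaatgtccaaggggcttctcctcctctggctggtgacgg
Cd163: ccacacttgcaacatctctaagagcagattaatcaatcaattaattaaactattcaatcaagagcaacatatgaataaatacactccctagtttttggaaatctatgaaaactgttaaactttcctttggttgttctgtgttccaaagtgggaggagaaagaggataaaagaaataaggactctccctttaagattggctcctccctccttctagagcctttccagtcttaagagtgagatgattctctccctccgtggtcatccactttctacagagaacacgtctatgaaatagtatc
Cd5l: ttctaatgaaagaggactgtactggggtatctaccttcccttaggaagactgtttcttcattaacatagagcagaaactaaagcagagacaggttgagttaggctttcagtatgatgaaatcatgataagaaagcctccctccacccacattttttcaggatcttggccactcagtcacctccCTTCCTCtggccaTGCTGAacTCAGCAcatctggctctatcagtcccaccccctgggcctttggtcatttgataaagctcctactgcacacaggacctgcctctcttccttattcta
The Clec4f window held MAF, RBPJ and LXR cores starting 199, 35 and 22 bases before the start site. The Timd4 window held MAF cores starting 150 and 44 bases before it and an LXR core starting 116 bases before it, and the Cd5l window held a PU.1 core starting 67 bases before the start and MAF cores starting 54 and 46 bases before it. None of these letter runs was in the Cd163 window. Over the 8 windows the MAF core was in 6, against 19.5% of all 32851 RefSeq windows. The PU.1 core was in 2 (13.6% of all), the RBPJ core in 2 (25.6%) and the LXR core in 2 (16.3%). Folr2 alone gave 2 of the 8 windows, each with the MAF core, so the 6 windows are not 6 separate genes. No match overlapped another in these windows. A match describes the letters only, and these data hold no binding measurement.

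Most of the 10 genes differed between HFMCD and chow livers, and not all in the same direction. In WT livers 7 were higher on HFMCD, 1 (Cd163) was lower and 2 (Timd4 and Marco) did not pass, by edgeR's quasi-likelihood test with a threshold of 0.05 on the Benjamini-Hochberg adjusted p over the 15677 genes tested. Of all genes tested, 29.0% were called higher and 33.6% lower in that comparison. In KO livers 7 were higher, 1 (Cd163) was lower and 2 (Clec4f and Timd4) did not pass, against 33.7% higher and 36.0% lower of all genes. The 2 comparisons share no library. In both genotypes 6 genes were called higher (Vsig4, Cd5l, Folr2, Adgre1, C1qa and Csf1r), and 1 was called lower. The share of all genes called in both genotypes is not given here, so these counts are not read as an excess. The libraries of the diets did not overlap for 6 higher and 0 lower genes in WT (23.1% and 24.1% of all genes) and for 7 higher and 1 lower in KO (25.7% and 27.3%). The median log2 fold change of the 10 was 1.73 in WT and 1.49 in KO, beside -0.05 and -0.02 over all genes. WT chow replicates 3 and 4 stood apart for most of the 10, and leaving them out was chosen after seeing the data. Without them Marco also passed in WT (1.24, adjusted p = 0.0057, edgeR). In that fit 9 of the 10 were called in either direction, beside 4617 higher and 4614 lower of 15612 genes. The choice rested on values of these 10 genes, so it is not separate support. Without the 4 chow libraries high in the attached-tissue genes, 7 were called in WT and 8 in KO. Of 15481 genes tested in that fit, 4463 were higher and 4988 lower in WT, and 5303 and 5506 in KO.

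Among the broad macrophage genes, the largest diet difference belonged to Adgre1 (chromosome 17, 57358691 to 57483527, plus strand, GRCm38), which encodes the surface receptor known as F4/80. On chow it ran from 6.71 to 24.1 CPM in WT (median 13.0) and from 9.91 to 19.1 CPM in KO (median 14.6). On HFMCD it was 82.1, 107, 85.2 and 117 CPM in WT and 80.7, 73.9, 91.1 and 104 CPM in KO. Every HFMCD library thus stood far above every chow library. The log2 fold change was 2.79 in WT (SE 0.24, adjusted p = 5.3e-09, edgeR), a 6.9-fold rise, and 2.64 in KO (SE 0.22, adjusted p = 3.1e-09, edgeR). In WT this exceeded the change of 97.1% of the genes tested.

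Csf1r (chromosome 18, 61100598 to 61132149, plus strand) encodes the receptor for CSF1 and IL-34 on which macrophage survival depends. Its chow level was 33.9 to 77.9 CPM in WT (median 51.3) and 43.5 to 64.9 CPM in KO (median 59.7). Its HFMCD level was 232, 250, 203 and 240 CPM in WT and 182, 223, 206 and 232 CPM in KO. The groups of a genotype did not overlap, and the log2 fold changes were 2.13 (SE 0.16, adjusted p = 3.5e-10, edgeR) and 1.93 (SE 0.16, adjusted p = 4.3e-10, edgeR). Some exon bases of Csf1r are shared with Hmgxb3 on the opposite strand, and whether the counting used strand is not given, so reads of this pair may be mixed.

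C1qa (chromosome 4, 136895917 to 136898803, minus strand) encodes a chain of complement C1q, of which macrophages are a main source. On chow it measured 28.2 to 78.5 CPM in WT (median 47.8) and 40.4 to 52.2 CPM in KO (median 45.5). On HFMCD the 4 WT libraries had 155, 186, 158 and 177 CPM and the 4 KO libraries 151, 162, 200.5 and 149 CPM. No HFMCD library overlapped a chow library. The log2 fold changes, 1.84 in WT (SE 0.19, adjusted p = 7.4e-08, edgeR) and 1.86 in KO (SE 0.18, adjusted p = 2.1e-08, edgeR), were smaller than those of Adgre1, a difference tested within libraries below.

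**Figure D1:**
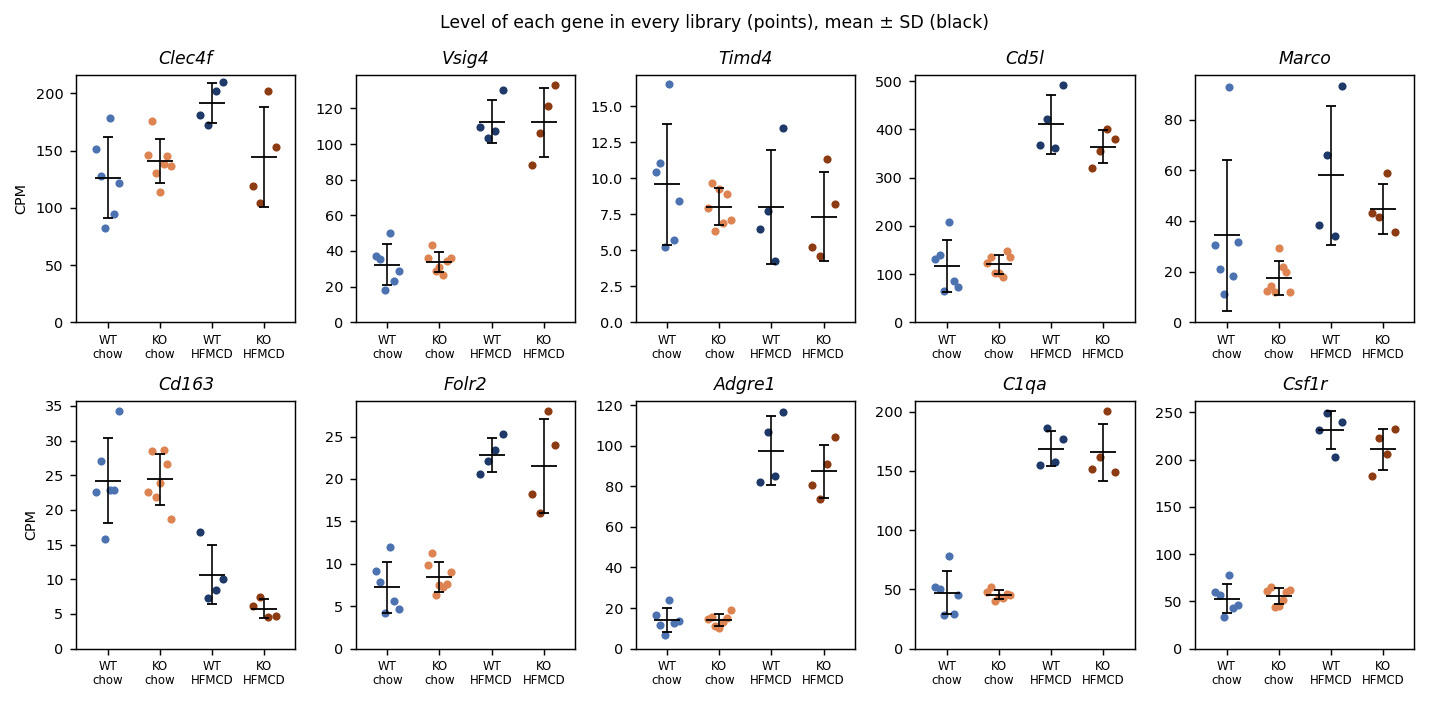
Level of each of the 10 genes (CPM, linear axis from 0) in every library, by genotype and diet, with the group mean and SD in black. Adgre1 goes from at most 24.1 CPM on chow to at least 73.9 CPM on HFMCD, Timd4 overlaps in all groups, and Cd163 is the gene that is lower on HFMCD.

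Of the Kupffer cell markers, the scavenging and lipid-handling genes Cd5l and Vsig4 rose about as much as C1qa. Cd5l (chromosome 3, 87357881 to 87371073, plus strand) encodes a secreted protein of the scavenger receptor family that binds lipids and microbial products. It ran on chow from 65.6 to 208 CPM in WT (median 109) and from 94.1 to 147 CPM in KO (median 123), and on HFMCD it was 367, 422, 361 and 492 CPM in WT and 320, 356, 400.1 and 379 CPM in KO. The log2 fold changes were 1.81 (SE 0.24, adjusted p = 2.1e-06, edgeR) and 1.60 (SE 0.23, adjusted p = 4.0e-06, edgeR), with no overlap of libraries.

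Vsig4 (chromosome X, 96247203 to 96293438, minus strand) encodes the complement receptor CRIg, which catches opsonised bacteria from the blood. It ran on chow from 17.9 to 50.1 CPM in WT (median 32.2) and from 26.3 to 43.5 CPM in KO (median 34.6). Its HFMCD values were 109, 104, 107 and 130.3 CPM in WT and 88.1, 106, 121 and 133 CPM in KO. All HFMCD libraries stood above all chow libraries, with log2 fold changes of 1.80 (SE 0.20, adjusted p = 1.8e-07, edgeR) and 1.73 (SE 0.19, adjusted p = 1.2e-07, edgeR).

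Folr2 (chromosome 7, 101839988 to 101857194, minus strand) encodes folate receptor beta, found on tissue-resident macrophages. It had 4.14 to 11.99 CPM in WT (median 6.73) and 6.36 to 11.3 CPM in KO (median 7.63) on chow, and 20.6, 22.1, 23.4 and 25.3 CPM in WT and 18.2, 16.0, 28.0 and 24.0 CPM in KO on HFMCD. The libraries of the diets did not overlap, and the log2 fold changes were 1.66 (SE 0.23, adjusted p = 2.5e-06, edgeR) and 1.35 (SE 0.22, adjusted p = 1.4e-05, edgeR). It shares exon bases with the opposite-strand gene model Gm10602, whose reads could be mixed in.

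Clec4f (chromosome 6, 83644542 to 83656187, minus strand) encodes a galactose-binding lectin made in the mouse almost exclusively by Kupffer cells. On chow it measured 82.6 to 178 CPM in WT (median 125) and 114 to 176 CPM in KO (median 138). On HFMCD it was 181, 172, 202 and 210 CPM in WT and 119, 104, 202 and 154 CPM in KO. Only WT chow replicate 4 reached into the range of the WT HFMCD libraries, and in KO the diets overlapped widely. The log2 fold change was 0.60 in WT (SE 0.18, adjusted p = 0.0077, edgeR) and 0.04 in KO (SE 0.18, adjusted p = 0.86, edgeR). The difference between genotypes in this diet effect was -0.56 (SE 0.26) and did not pass the interaction test (adjusted p = 0.47, edgeR). Without the 4 chow libraries high in the attached-tissue genes, the WT value was 0.40 and no longer passed (adjusted p = 0.059, edgeR).

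Timd4 (chromosome 11, 46810800 to 46844332, plus strand) encodes TIM-4, a phosphatidylserine receptor for the uptake of dying cells and a marker of embryonically seeded Kupffer cells. Its chow values ran from 5.20 to 16.6 CPM in WT (median 9.42) and from 6.31 to 9.63 CPM in KO (median 7.92), and its HFMCD values were 6.47, 7.70, 4.24 and 13.5 CPM in WT and 5.24, 4.60, 11.3 and 8.19 CPM in KO. All 4 groups overlapped. The log2 fold changes of -0.26 (SE 0.32, adjusted p = 0.49, edgeR) and -0.13 (SE 0.31, adjusted p = 0.73, edgeR) did not pass in either genotype, and their errors leave room for changes of either sign.

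Cd163 (chromosome 6, 124304656 to 124330527, plus strand) encodes the receptor that clears haemoglobin bound to haptoglobin. It had 15.8 to 34.2 CPM in WT (median 22.8) and 18.7 to 28.6 CPM in KO (median 23.9) on chow. On HFMCD it had 16.8, 7.31, 8.43 and 10.1 CPM in WT and 6.20, 7.50, 4.60 and 4.72 CPM in KO. In KO every HFMCD library was below every chow library, while in WT HFMCD replicate 1, at 16.8 CPM, stood above chow replicate 3. Cd163 fell by 1.18 on the log2 scale in WT (SE 0.22, adjusted p = 8.9e-05, edgeR), a 2.27-fold decrease, and by 2.08 in KO (SE 0.23, adjusted p = 6.8e-08, edgeR), a 4.23-fold decrease.

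Marco (chromosome 1, 120474538 to 120505024, minus strand) encodes a collagen-like scavenger receptor for bacteria and particles. Over all 4 groups, with group means removed, its SD was the largest of the 10 (0.66 on the log2 scale). The SD of Marco was 1.04 in WT on chow. In both HFMCD groups Timd4 had a larger SD than Marco (0.684 against 0.678 in WT, 0.589 against 0.304 in KO). On chow Marco ran from 11.1 to 93.1 CPM in WT (median 25.7) and from 11.8 to 29.4 CPM in KO (median 14.5). On HFMCD it was 38.4, 65.9, 34.2 and 93.3 CPM in WT and 43.1, 41.7, 58.8 and 35.5 CPM in KO. WT chow replicate 4 came close to the highest HFMCD library, while the next WT chow library was at 31.8 CPM, below all HFMCD libraries. In KO the diets did not overlap and the log2 fold change was 1.37 (SE 0.45, adjusted p = 0.012, edgeR), whereas in WT it was 0.76 (SE 0.46, adjusted p = 0.16, edgeR). Leaving out WT chow replicate 4 gave 1.41 in WT (adjusted p = 0.0023, edgeR). The difference of the diet effect between genotypes was 0.62 (SE 0.65, adjusted p = 0.82, edgeR).

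**Figure D2:**
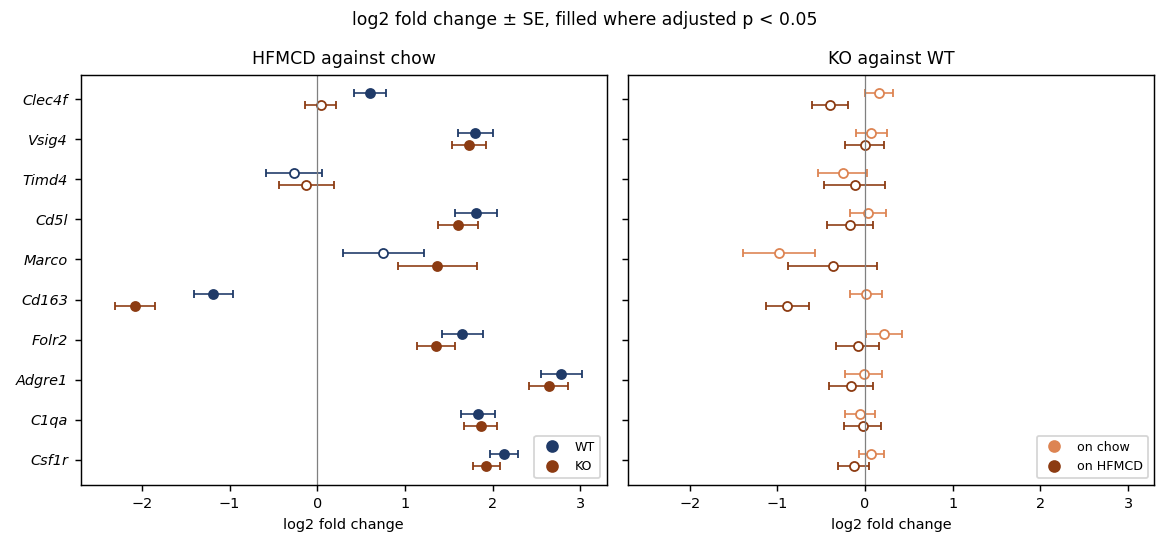
log2 fold changes with their standard errors for HFMCD against chow in each genotype (left) and KO against WT on each diet (right), filled where the adjusted p was under 0.05. On the left the genes spread from -2.08 (Cd163, KO) to 2.79 (Adgre1, WT), and on the right no point is filled.

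The unequal rises were compared inside each library as the log2 ratio of a gene to Adgre1, which does not depend on how a library is scaled. All 9 ratios were lower on HFMCD than on chow in WT and in KO, by two-sided exact permutation tests adjusted over 36 ratios (adjusted p = 0.020 for each in WT, and 0.020 to 0.024 in KO). Adgre1 had the largest rise of the 10 in both genotypes, so the common direction of the 9 ratios restates that rank. The sizes of the drops largely restate the fold changes given above, so these tests are not separate evidence on the 9 genes. With 6 against 4 and 7 against 4 libraries the smallest unadjusted p these tests can give is 0.0095 and 0.0061. The ratio of Cd163 to Adgre1 moved furthest. It went from a log2 ratio of 0.84 ± 0.55 (SD, n = 6) on chow to -3.24 ± 0.68 (SD, n = 4) on HFMCD in WT, and from 0.82 ± 0.43 (SD, n = 7) to -3.92 ± 0.54 (SD, n = 4) in KO. Timd4 against Adgre1 went from -0.57 ± 0.35 to -3.71 ± 0.49 in WT and from -0.78 ± 0.39 to -3.64 ± 0.45 in KO. The ratio of Timd4 did not overlap between the diets, but its own level did not pass and overlapped in all groups. Its lower ratio therefore restates the rise of Adgre1 and does not show a change of Timd4.

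Clec4f against Adgre1 fell by 2.22 in WT and by 2.65 in KO on the log2 scale. Marco fell by 1.89 and 1.24, Folr2 by 1.12 and 1.32, and Vsig4 by 0.99 and 0.93. Cd5l fell by 0.95 and 1.04, C1qa by 0.95 and 0.80, and Csf1r by 0.69 and 0.72. The libraries of the diets did not overlap for any of these ratios in WT, nor in KO apart from Marco. With Csf1r as the reference, 10 of 36 ratios passed (adjusted p 0.043 to 0.044, exact permutation tests). Clec4f, Timd4 and Cd163 were lower and Adgre1 was higher on HFMCD in both genotypes, and Cd5l (-0.32) and Folr2 (-0.60) were lower in KO. Against Csf1r, the differences were -1.53 and -1.94 for Clec4f, -2.45 and -2.14 for Timd4 and -3.39 and -4.02 for Cd163, in WT and KO. The lower ratio held for these 3 genes with either reference, but Csf1r itself rose by 2.13 in WT and 1.93 in KO on the log2 scale. Of these 3 genes, only Cd163 was called lower in its own level. Vsig4, Marco and C1qa against Csf1r passed in neither genotype.

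**Figure D3:**
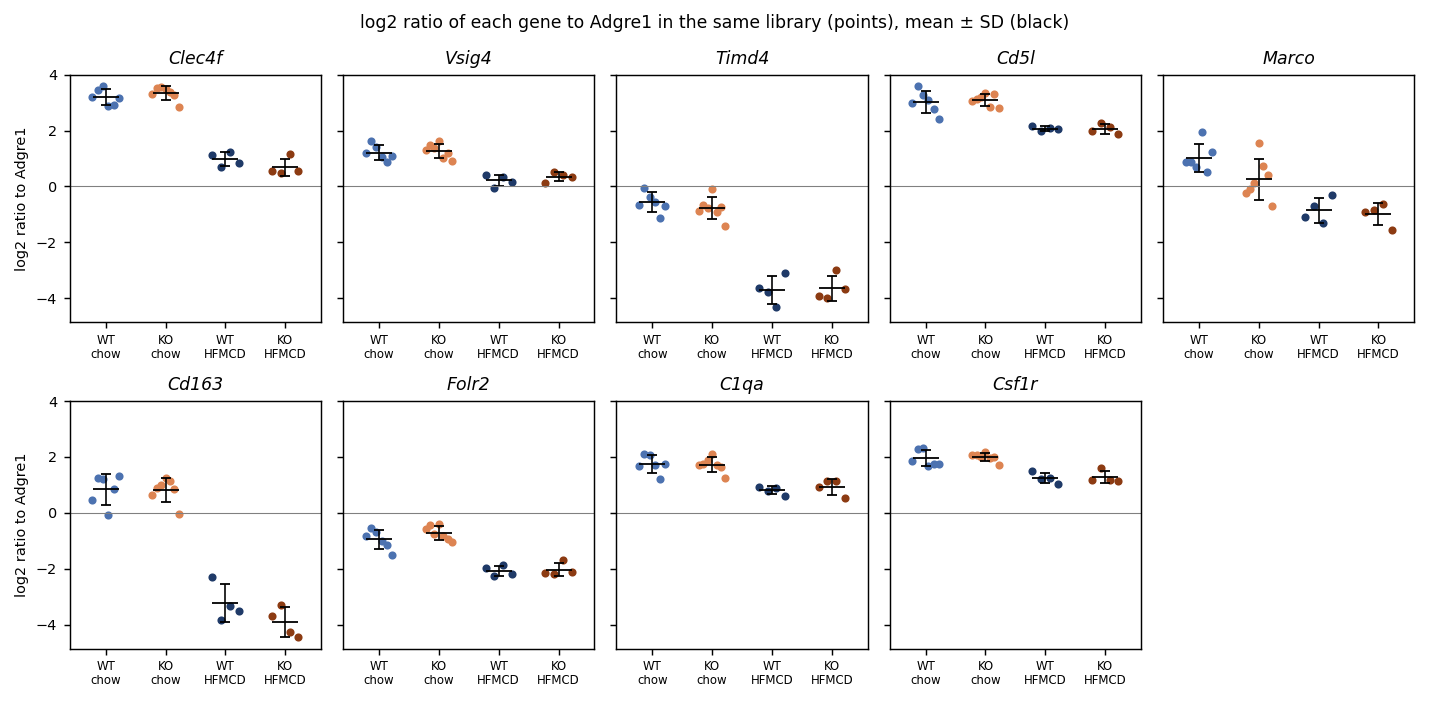
log2 ratio of each gene to Adgre1 within each library, by group, with the group mean and SD in black. Cd163 and Timd4 drop furthest on HFMCD, and Csf1r, with a drop of 0.69 in WT and 0.72 in KO, moves least.

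Between KO and WT, edgeR called none of the 10 genes on either diet, and DESeq2 called Cd163 on HFMCD. On chow 0 of 10 were called by edgeR (2.17% of all genes were) and all 10 overlapped between genotypes (0.236% of all genes were higher and 0.421% lower without overlap), with 6 positive and 4 negative log2 fold changes. DESeq2 and limma-voom also called 0. The one gene with an unadjusted p under 0.05 was Marco, at -0.99 (SE 0.41, adjusted p = 0.21, edgeR). Of the 15677 genes tested, 2806 had an unadjusted p under 0.05 in this comparison. Without WT chow replicate 4 Marco was at -0.36 (adjusted p = 0.59, edgeR). The other 9 ranged from -0.26 (Timd4) to 0.22 (Folr2). Without WT chow replicates 3 and 4 no gene of the 10 was called either.

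On HFMCD 0 of 10 were called by edgeR (0.319% of all genes were), and all 10 overlapped between genotypes (4.96% of all genes were higher and 3.66% lower without overlap). All 10 log2 fold changes were negative, with a median of -0.15 beside 0.01 for all genes. Vsig4, at -0.0053, was at 0.013 with upper-quartile scaling. Leaving out 1 library, the value reached 0.26 for Timd4, 0.093 for Vsig4, 0.034 for Folr2 and 0.020 for C1qa. Most of the 10 genes varied together between libraries of a group, as given below, so their signs are not 10 separate observations. Of the 15677 genes tested, 1562 had an unadjusted p under 0.05 (edgeR), and of the 10 only Cd163 did. It had the smallest p of the 10, at -0.89 (SE 0.24, adjusted p = 0.14, edgeR). Its 4 KO libraries had 4.60 to 7.50 CPM and its 4 WT libraries 7.31 to 16.8 CPM, so that KO replicate 2 and WT replicate 2 overlapped narrowly. Without WT HFMCD replicate 1 the value was -0.58 (adjusted p = 0.37, edgeR). DESeq2 called it (-0.89, adjusted p = 0.024) and limma-voom called 0 of 10. Clec4f followed with -0.40 (SE 0.20, adjusted p = 0.53, edgeR). The WT HFMCD libraries also enter the diet comparison in WT, so the lower Cd163 in KO on HFMCD and its deeper diet decrease in KO rest on shared values.

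The KO effect was compared between the diets by the interaction term, which called 0 of 10 (0.00% of all genes) by edgeR, and 0 of 10 by DESeq2 and limma-voom. At an unadjusted p under 0.05 there were 2 of 10, beside 1581 of the 15677 genes tested (edgeR). Cd163 had the smallest p, with a difference of -0.90 (SE 0.30, adjusted p = 0.29, edgeR), and Clec4f had -0.56. Without WT HFMCD replicate 1 the Cd163 difference was -0.59. Ratios to Adgre1 did not pass between genotypes on chow (adjusted p 0.10 to 0.94) or on HFMCD (0.33 to 0.94, exact permutation tests), where 4 against 4 libraries cannot give an unadjusted p below 0.029. Without KO chow replicate 4, the ratio of Marco to Adgre1 passed on chow at -0.98 (adjusted p = 0.019, exact permutation test).

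Levels were ranked between genes as CPM per kilobase of merged exons. In WT on chow Cd5l (57.6 ± 26.6, SD, n = 6), Clec4f (51.0 ± 14.3) and C1qa (45.4 ± 17.8) led, and their ranges overlapped. Vsig4 (21.7), Marco (17.8) and Csf1r (9.14) followed. Folr2, Cd163, Timd4 and Adgre1 closed the order at 4.68, 4.43, 4.40 and 4.36, with overlapping ranges. KO on chow kept Cd5l, Clec4f, C1qa and Vsig4 in the first 4 places. On HFMCD the order changed. Cd5l (202 ± 29.9, n = 4, in WT) and C1qa (162 ± 14.3) led, and Clec4f (77.5) and Vsig4 (75.9) overlapped. Adgre1 stood at 30.2, level with Marco at 30.1, and Timd4 (3.67) and Cd163 (1.95) were last. In KO on HFMCD Timd4 (3.37) and Cd163 (1.05) were also last and did not overlap.

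Libraries of the same group also differed across many of the 10 genes at a time, Cd163 apart. WT chow replicate 3 had the lowest value of its group in 10 of 10 genes, and WT chow replicate 4 the highest in 9 of 10, all but Cd163. The summed level of 9 hepatocyte genes was 123384 CPM in replicate 3. It was 96150 CPM in replicate 4, the lowest of the 6 WT chow libraries. Replicates 5 and 6 had higher sums than replicate 3, at 127782 and 140000 CPM. Replicate 3 also had the lowest count total of that group (18881055) and was high in the attached-tissue genes. The part of any of these in the levels was not tested. After removing group means, the median Pearson correlation of a gene with the other 9 over 21 libraries ran from 0.56 (Marco) to 0.83 (Vsig4), but was 0.02 for Cd163. Without WT chow replicates 3 and 4 it was 0.07 for Marco, 0.69 for Vsig4 and -0.13 for Cd163 over 19 libraries. All genes of a library share its scaling, so these values are descriptions.

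**Figure D4:**
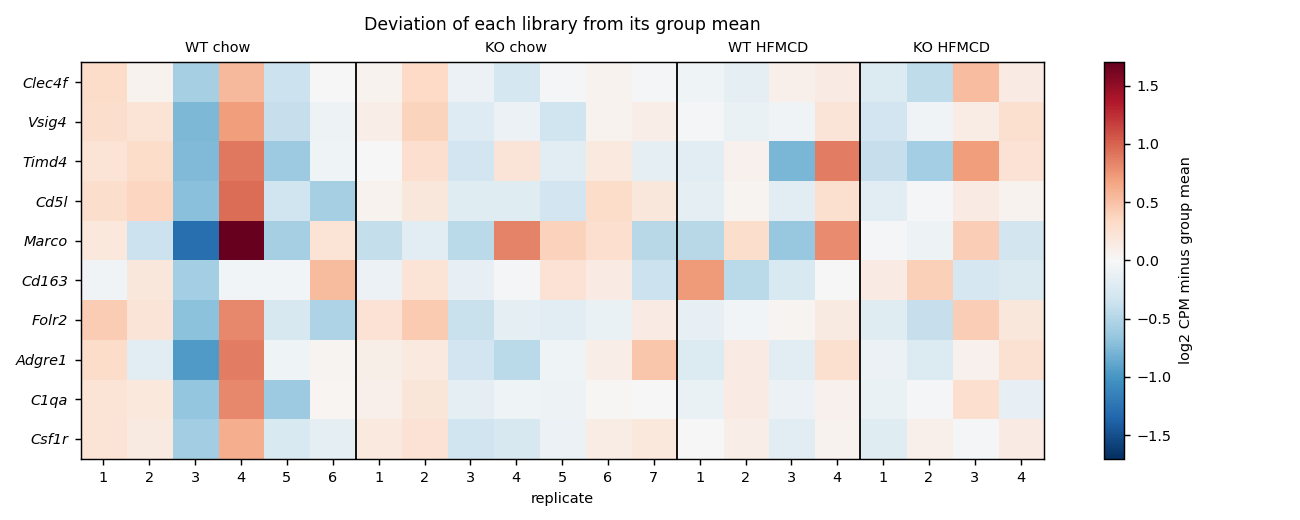
Deviation of each library from its group mean (log2 CPM, colour scale from -1.7 to 1.7) for the 10 genes, with libraries in columns by group and replicate number. WT chow replicate 3 is low for all 10 genes and WT chow replicate 4 high for 9, while Cd163 does not follow the other genes.

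The genes whose within-group pattern was most like the mean of the 7 Kupffer cell markers, among 12937 other genes averaging 1 CPM or more, were Lcp2 (r = 0.95 over 21 libraries), Cfp (0.93), Wfdc17 (0.91), Fcgr4 (0.90) and Fyb (0.89). For the mean of Adgre1, C1qa and Csf1r they were Lyz2 (0.96), C1qb (0.95), Fyb (0.92), Evl (0.91) and Cybb (0.91). Lcp2 and Fyb encode adaptor proteins of blood cell signalling, Cfp encodes properdin and Lyz2 lysozyme. Without WT chow replicates 3 and 4 these correlations ranged from 0.73 (Fyb) to 0.90 (Lcp2) for the Kupffer cell mean and from 0.78 (Cybb) to 0.90 (Evl) for the other.

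Further genes of the same cells were read from lists. Of 16 other Kupffer cell genes, 13 were called higher and 0 lower on HFMCD in WT and 12 higher and 1 lower in KO, with medians of 1.53 and 1.07. Among them Il18bp, a decoy for interleukin 18, rose by 2.02 in WT and 1.94 in KO on the log2 scale, Vcam1, an adhesion molecule also made by endothelium, by 2.04 and 2.18, and Hmox1, which degrades haem, by 2.02 and 1.83. Fcna, a ficolin of Kupffer cells, was the 1 called lower in KO (-0.60, adjusted p = 0.0009, edgeR) and was named after its value was seen. In WT Fcna was at -0.10 (adjusted p = 0.57, edgeR).

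Of 20 other pan-macrophage genes, 19 were called higher and 0 lower in each genotype, with medians of 2.43 in WT and 2.46 in KO. Cd68, a lysosomal glycoprotein, rose by 3.51 and 3.68, the protease gene Ctss by 3.54 and 3.81, Mpeg1, a pore-forming protein of phagosomes, by 3.14 and 3.21, and the endotoxin co-receptor gene Cd14 by 2.09 and 2.29. All 18 genes of monocytes and recruited macrophages were called higher in each genotype, with medians of 3.56 and 3.81. Mmp12, an elastase of macrophages, rose by 9.92 and 10.07, Lgals3 (galectin 3) by 4.65 and 4.90, and the beta-glucan receptor gene Clec7a by 5.02 and 5.17. This list summed to 88.6 to 146 CPM in WT on chow and 1616 to 1885 CPM on HFMCD, and to 90.3 to 175 and 2054 to 2955 CPM in KO. No gene of it was at 0 in every library. Its part in the rise of Adgre1, C1qa, Csf1r, Cd5l, Vsig4, Folr2 and Marco was not tested.

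**Figure D5:**
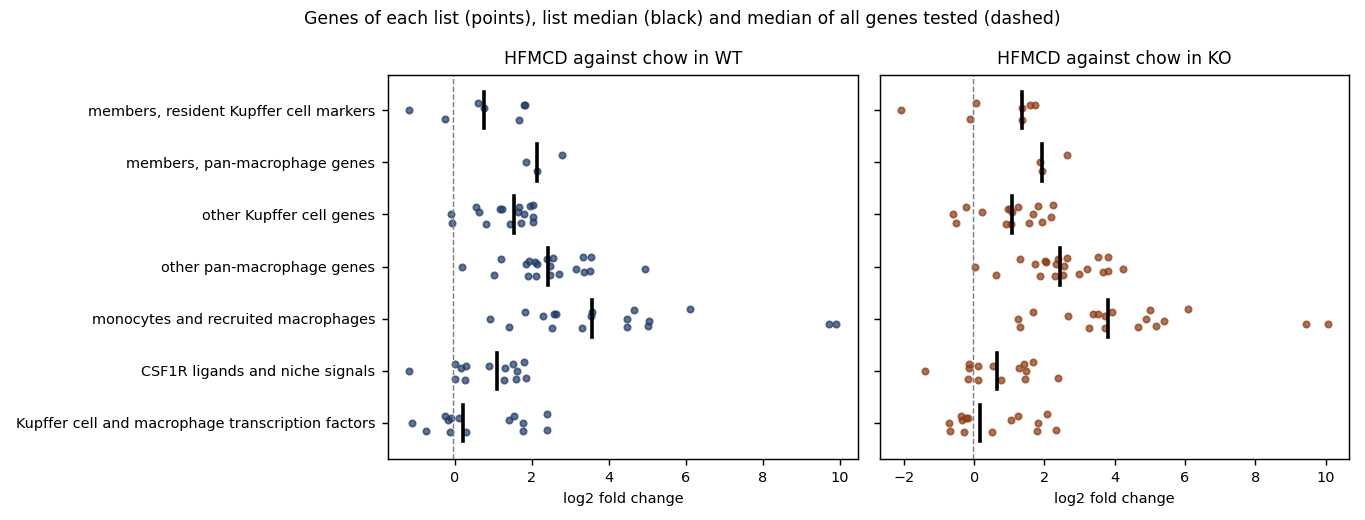
log2 fold changes for HFMCD against chow, in WT (left) and KO (right), of the genes of 7 lists, with each list's median (black bar) and the median of all genes tested (dashed, -0.05 and -0.02). The medians of monocyte and recruited macrophage genes (3.56 and 3.81) lie to the right of those of the 7 Kupffer cell markers (0.76 and 1.35).

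Of 14 ligands, receptors and niche signals, 8 were called higher and 1 lower in each genotype, with medians of 1.08 and 0.66. Both ligands of Csf1r were among those higher, and were named after their values were seen: Csf1 by 1.31 in WT and 1.29 in KO, and Il34 by 1.27 and 0.76. Gdf2 (BMP9), made by stellate cells, rose by 1.60 and 1.43, and Tgfb1 by 1.58 and 1.68. The 1 called lower was the Notch ligand gene Dll1, at -1.19 and -1.40. Of 14 transcription factors of macrophages and Kupffer cells, 7 were called higher in each genotype, 0 lower in WT and 3 lower in KO, with medians of 0.20 and 0.17. Spi1, which encodes PU.1, rose by 2.40 and 2.33, Irf8 by 1.77 and 1.81, Zeb2 by 1.77 and 1.78 and Runx1 by 2.40 and 2.06. Nr1h3 (LXR-alpha), also made by hepatocytes, was at -0.13 in WT (adjusted p = 0.16, edgeR) and -0.19 in KO (adjusted p = 0.033, edgeR), and Maf, at 0.11 and -0.24, was not called. Dll1, Nr1h3 and Maf were chosen after their values were seen.

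Genes of other cells were also called between the diets. The shares over all genes were 29.0% higher and 33.6% lower in WT and 33.7% and 36.0% in KO. Of 9 hepatocyte genes tested, 0 were called higher and 5 lower in WT, with a summed level of 96150 to 140000 CPM on chow and 96797 to 112535 CPM on HFMCD. Of 10 stellate cell genes 9 were called higher in WT, and their sum went from 253 to 340 CPM on chow to 1197 to 1440 CPM on HFMCD. Of 10 sinusoidal endothelial genes 6 were called higher in WT, where they summed to between 277 and 456 CPM on chow and between 525 and 593 CPM on HFMCD, and in KO 3 were called higher and 1 lower, near or below the share over all genes. None of these lists had a gene at 0 in every library, and their part in the 10 genes' changes was not tested.

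Between genotypes the lists gave few calls. The 5 lists of macrophages and monocytes, niche signals and transcription factors hold 82 genes, some of them made by other liver cells. On chow edgeR called 0 of the 82, with 7 at an unadjusted p under 0.05, beside 2806 of the 15677 genes tested. DESeq2 called 2 of them (Cx3cr1 higher and Chil3 lower in KO) and limma-voom 0. On HFMCD the 1 call by edgeR was Spp1 (osteopontin) at 1.60 (adjusted p = 0.035, edgeR), which is also on the list of bile duct genes, of which 6 of 10 were called higher in KO. DESeq2 and limma-voom each called 2 of the 82, Spp1 and Cd63, both higher in KO. Of the 16 other Kupffer cell genes 4 had a positive log2 fold change on HFMCD (median -0.13), with Siglec1 at -0.60 (adjusted p = 0.24, edgeR) and Fcna at -0.40 (adjusted p = 0.39, edgeR), against 14 of 20 positive among other pan-macrophage genes (median 0.13) and 16 of 18 among genes of monocytes and recruited macrophages (median 0.31). Sinusoidal endothelial genes had 0 of 10 positive (median -0.25), and hepatocyte genes 2 of 9 (median -0.22).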

How the data were processed

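Whole-liver RNA-seq in 21 libraries was analysed from the raw read counts per gene symbol that the authors deposited, 1 file per library. These counts were not normalized. Per the submitters' processing notes, the tools were featureCounts 1.6.1, STAR 2.6.1d and CASAVA 2.17 with GRCm38 as build, their steps not being recorded, and the annotation and strand setting are not given in the sources used here. Positions and exon lengths came from GENCODE M21. Reads carried no molecular identifiers.

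Counts were fitted with edgeR 4.0.16 in R 4.3.3: filterByExpr with 4 groups (15677 genes left), TMM scaling, robust quasi-likelihood, 1 model of 4 group means over 21 libraries, 5 two-sided contrasts, Benjamini-Hochberg adjustment over all genes and a threshold of 0.05. CPM is relative to the TMM-scaled sum over tested genes, and a prior count of 2 was used for log2 CPM. The standard error (SE) is the fold change over the square root of F. No label ties libraries to separate animals beyond a number in the title, so p-values measure the spread between these samples. Within groups, 0 of 48 library pairs were identical. The fit was tested on simulated data. Ratios within libraries were compared by two-sided exact permutation tests, adjusted over 36.

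The members, gene lists, alternatives and naming rule (all 10 members; from each list up to 4 called genes with the smallest p, or 2 as values where none was called) were chosen with earlier results of these data known, so the direction of a list is not independent evidence. Alternatives were DESeq2 1.42.0, limma-voom 3.58.1 with quality weights, RLE and upper-quartile scaling, other low-count filters, fits to the compared groups, a prior count of 0.5, Csf1r as reference, and fits without single or doubted libraries. Leaving out WT chow replicates 3 and 4 was chosen after seeing the data. One hepatocyte gene of the list was not analysed here.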

Additional observations from a re-analysis of the deposited data

Results flagged for a closer look

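Marco in WT chow replicate 4 measured 93.1 CPM, far from the other 5 libraries of its group, which ran from 11.1 to 31.8 CPM. On the log2 scale it was at 6.54 and the other 5 libraries at 3.48 to 4.99. Taken on CPM and not on the log2 scale, the gap to the next library was 0.75 of the whole range of the group, past Dixon's critical value at 95%. It was the 1 flag among 40 combinations of a gene and a group, and chance flags about 1 in 20.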

How the results depend on the processing

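The count of members called changed with DESeq2 for KO against WT on HFMCD (1 instead of 0). For HFMCD against chow in WT (8) it was 9 with limma-voom, without WT chow replicate 4 and without WT chow 3 and 4, and 7 without KO chow 1 and 7 and WT chow 3 and 5. No called member changed direction. Of 66 reversed fold changes of members, 0 were called as reported. Depth limits Timd4 and Folr2 most, whose lowest counts were 93 and 74. DESeq2 moved the median of all genes in the diet comparison in KO to -0.13, over 22176 genes. No paired analysis was possible because the labels give the groups no shared replicate numbers. The fit to the compared groups was not run for the difference between diets, which uses all 4 groups.

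The number of genes called for KO against WT on chow (340) was 715 with DESeq2, 113 with limma-voom, 2 in the fit to the compared groups, 144 without KO chow 1 and 7, 189 without these and WT chow 3 and 5, and 49 to 611 leaving out 1 library. For KO against WT on HFMCD (50) it was 185 with DESeq2, 321 with limma-voom, 32 with RLE, 28 with upper-quartile scaling, 28 with no low-count filter, 296 in the fit to the compared groups and 1 to 16 leaving out 1 library. For the difference between diets (0) it was 100 with DESeq2, 10 with limma-voom, 5 with no filter, 84 without KO chow 1 and 7, 62 without these and WT chow 3 and 5, and 0 to 8 leaving out 1 library. Ratios past the threshold went from 18 to 10 with Csf1r as reference. The causes were not tested.

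Reversed values for KO against WT on chow without KO chow 1 and 7 and WT chow 3 and 5 were Clec4f -0.042, Vsig4 -0.21, Cd5l -0.25, Cd163 -0.041, Folr2 -0.074 and Csf1r -0.18. Without KO chow 1 and 7 Cd5l was -0.013, without WT chow 3 and 4 Cd163 was -0.11, Adgre1 0.073 and C1qa 0.059, with no filter Cd163 was -0.0070, and with limma-voom Adgre1 was 0.036 and C1qa 0.027. On HFMCD Vsig4 was 0.013 with upper-quartile scaling. Clec4f for HFMCD against chow in KO was -0.025 with limma-voom. The difference between diets reversed for Vsig4 (0.20), Cd5l (0.074), Adgre1 (0.19) and Csf1r (0.052) without the 4 libraries, and for C1qa with limma-voom (-0.10) and without WT chow 3 and 4 (-0.10). Ratios to Adgre1 on chow without KO chow 1 and 7 were 0.19 for Cd163 and 0.069 for C1qa.

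Leaving out 1 library, KO against WT on chow ran from -0.16 to 0.22 for Adgre1, -0.17 to 0.17 for C1qa, -0.086 to 0.15 for Cd163, -0.090 to 0.29 for Cd5l, -0.030 to 0.23 for Csf1r and -0.053 to 0.26 for Vsig4, and on HFMCD from -0.13 to 0.020 for C1qa, -0.24 to 0.034 for Folr2, -0.41 to 0.26 for Timd4 and -0.10 to 0.093 for Vsig4. HFMCD against chow ran from -0.16 to 0.17 for Clec4f in KO, -0.41 to 0.049 for Timd4 in KO and -0.64 to 0.015 for Timd4 in WT. The difference between diets ran from -0.20 to 0.14 for C1qa, -0.023 to 0.94 for Marco, -0.15 to 0.51 for Timd4 and -0.27 to 0.048 for Vsig4. Ratios to Adgre1 for KO against WT on chow ran from -0.14 to 0.052 for C1qa, -0.21 to 0.12 for Cd163, -0.042 to 0.19 for Cd5l and -0.0039 to 0.12 for Csf1r, and on HFMCD from -0.081 to 0.054 for Cd5l, -0.083 to 0.10 for Csf1r, -0.075 to 0.11 for Folr2, -0.27 to 0.072 for Marco and -0.14 to 0.27 for Timd4. The ratio of Marco to Adgre1 in the diet comparison in KO lost its call without KO HFMCD replicate 1, 2 or 4 (adjusted p = 0.067 each, exact permutation test). Marco for HFMCD against chow in WT was called with limma-voom (1.06, adjusted p = 0.026).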
